A study of Homo sapiens with 6 samples.

Results

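The genes described here are eIF2α, the 4 kinases that phosphorylate it and 3 subunits of the phosphatases that reverse the phosphorylation. They were chosen by name, with earlier results of these data known, as 8 of 19676 genes measured. They are EIF2AK1, EIF2AK2, EIF2AK3 and EIF2AK4 for the kinases HRI, PKR, PERK and GCN2, EIF2S1 for eIF2α, PPP1R15A and PPP1R15B for the regulatory subunits GADD34 and CReP, and PPP1CA for a catalytic subunit of protein phosphatase 1. Their RNA was measured on 6 Affymetrix arrays of A375, an established melanoma line of human origin that carries mutated BRAF. At 6 h there was 1 array each of cells given the solvent DMSO, 10 µM vemurafenib, 100 nM AT9283, or both drugs at these doses, and at 16 h there was 1 array each of 10 µM vemurafenib and of DMSO. AT9283 is an inhibitor of Aurora kinases and JAK2, and vemurafenib is an inhibitor of BRAF with the mutation that A375 carries. All groups are cultures of the same cell line in the same medium with serum, and none is a genetic model.

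eIF2 carries the initiator tRNA to the ribosome. When a kinase phosphorylates its α subunit, eIF2 blocks its own exchange factor eIF2B, most translation slows, and a few messages with upstream reading frames, ATF4 and PPP1R15A among them, are translated better. ATF4 then raises genes of the integrated stress response, GADD34 is made as part of that response, and GADD34 brings protein phosphatase 1 back to eIF2α, which closes a feedback loop. The arrays measure RNA, so they carry no information on phosphorylation, kinase activity or protein level.

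The median intensity per array lay between 19.79 and 21.29. Vemurafenib lowered its known readout, as the ERK target DUSP6, a phosphatase gene, was at log2 9.50 with DMSO and 4.28 with vemurafenib at 6 h, and at 9.60 and 4.38 at 16 h. Among 10 measured melanoma and neural crest markers, 3 (SOX10, MITF and AXL) lay at or above log2 6 on all arrays, while 6, the pigment genes PMEL, MLANA, TYR and TYRP1 among them, lay below it on all arrays. All 3 endothelial and both hepatocyte markers measured also lay below it on all arrays, as did 2 of 3 leukocyte markers. The other leukocyte marker, LYZ, reached it on some arrays. Of 4 epithelial markers, 2 lay at or above it on all arrays and 2, EPCAM and CDH1, lay below it on all. The 2 above it were the keratin genes KRT8 and KRT14, at log2 7.93 and 7.48 with DMSO at 6 h. A gene is said to have risen or fallen when its log2 difference was 1 or more in size (2-fold) and the higher of the arrays reached log2 6, an intensity of 64 that is here called the floor. With 1 array per condition this size rule replaces a test. A loose yardstick is the difference between both DMSO arrays, which had an SD of 0.24 (log2) over genes at the floor and also holds time. Levels of different genes come from different probe sets and were not set against each other.

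All 8 genes lay at or above the floor on all 6 arrays. Of the 8 genes, 1 passed the size rule in any of the 7 comparisons, namely EIF2S1, which fell after 16 h of vemurafenib. PPP1R15A came just short of the rule under both drugs. The 4 kinase genes differed by between -0.23 and 0.41 in the 6 comparisons that involve a drug. In bulk RNA, fewer cells with a transcript and less transcript per cell cannot be told apart.

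The counts of members are given beside the background, the share of all genes at the floor that passed the same rule in either direction. For vemurafenib against DMSO, 0 of 8 members passed the size rule at 6 h, where 3.18% of all genes at the floor did, and 1 of 8 passed at 16 h, where 11% did. The count of 1 of 8 is close to that 16 h share and does not set the members apart from other genes. For AT9283 against DMSO 0 of 8 passed, with a background of 0.0224%. For the combination 0 of 8 passed against DMSO (background 2.57%), 0 against vemurafenib (0.322%) and 0 against AT9283 (2.42%). Between the DMSO arrays 0 of 8 passed, with a background of 0.276%.

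With a smaller size of 0.5 the count became 1 of 8 in all 3 comparisons of the combination, PPP1R15A each time. The background at that size was 9.09% against DMSO, 2.1% against vemurafenib and 8.19% against AT9283. Vemurafenib at 16 h had 1 of 8, EIF2S1, with a background of 34.1%. The remaining comparisons had 0 of 8 at that size, with backgrounds of 11.4% for vemurafenib at 6 h, 0.302% for AT9283 and 4.35% for the DMSO pair. The median over the 8 members lay between -0.04 and 0.06 in the 7 comparisons, as the medians over all genes at the floor lay between -0.04 and 0.05.

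**Figure D1:**
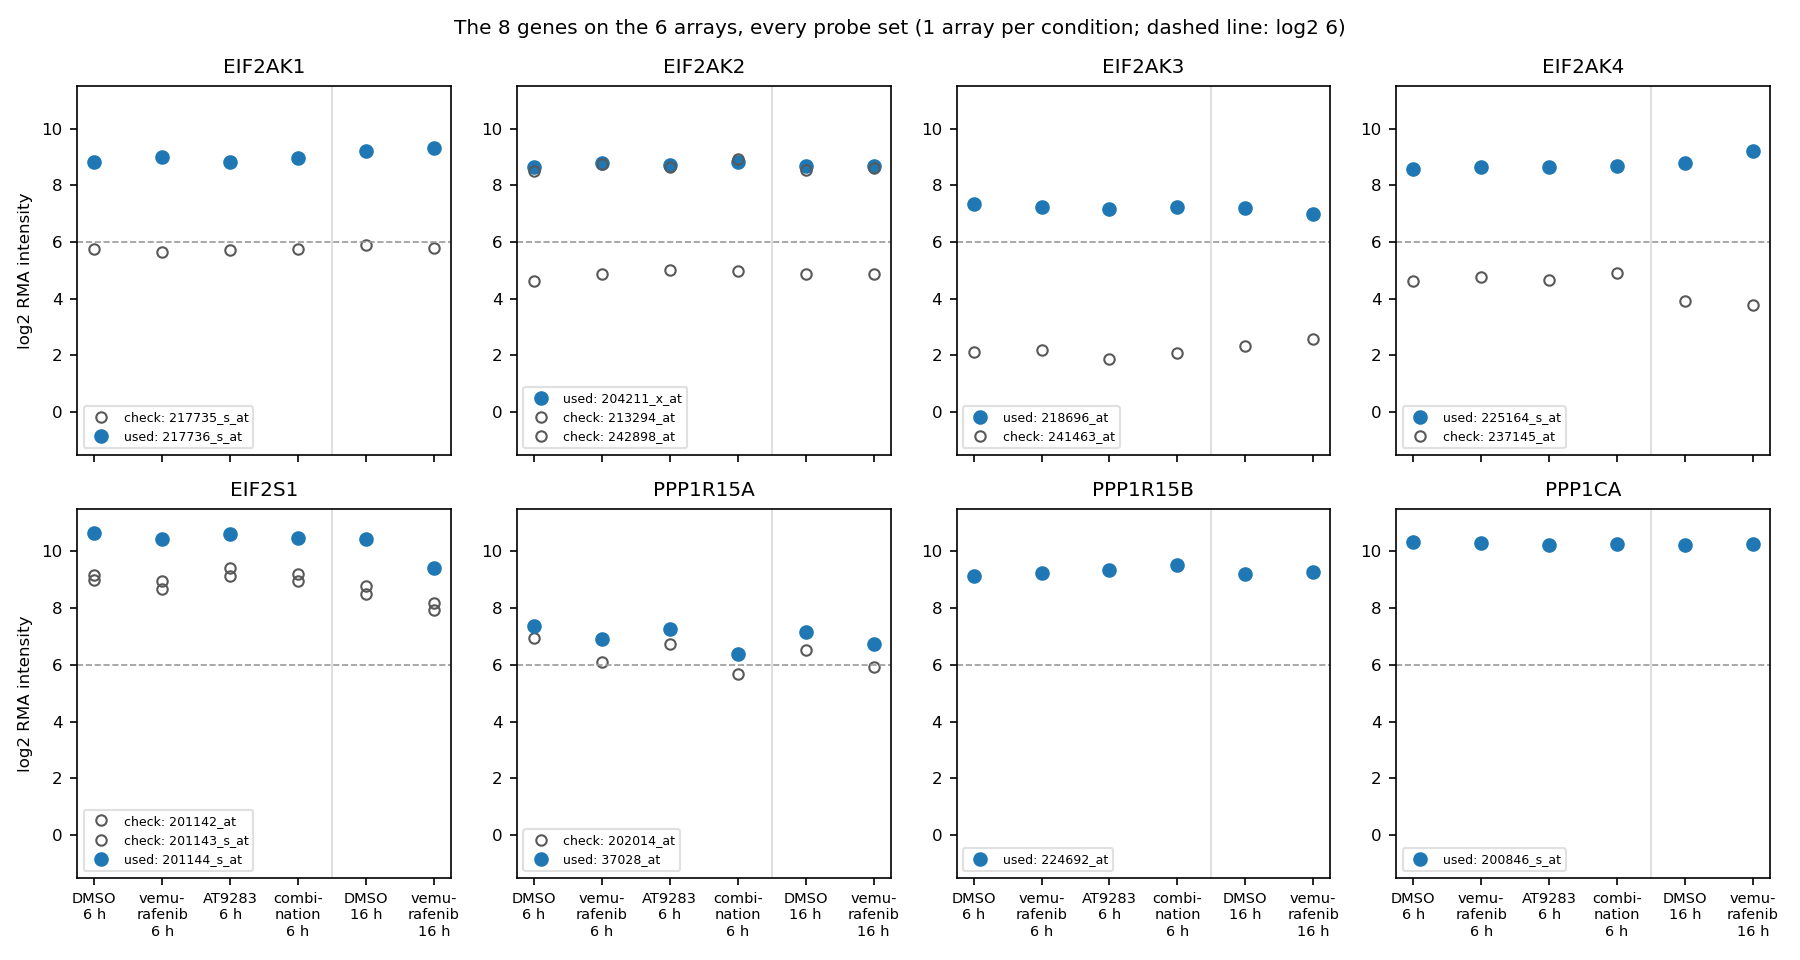
Log2 RMA intensity (vertical axis) of the 8 genes on the 6 arrays (horizontal axis, 1 array per condition), with filled points for the probe set used, open points for the other probe sets and a dashed line at log2 6. The points of PPP1R15A are lowest with both drugs at 6 h (log2 6.39), and those of EIF2S1 are lowest with vemurafenib at 16 h (log2 9.42).

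The kinases are described first, in the order of their numbers. EIF2AK1 encodes HRI, which senses heme shortage and relays mitochondrial stress. Its log2 level was 8.82 with DMSO, 9.00 with vemurafenib, 8.83 with AT9283 and 8.95 with both drugs at 6 h, and 9.20 with DMSO and 9.30 with vemurafenib at 16 h. Both 16 h arrays were above all 4 arrays of 6 h. The difference between the DMSO arrays, 0.38, was above that of 95.0% of 9055 genes at the floor, and the differences of vemurafenib were smaller, at 0.18 at 6 h and 0.10 at 16 h. A second probe set, below the floor on all arrays, had -0.10 and -0.12 for these vemurafenib differences.

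EIF2AK2 encodes PKR, the kinase activated by double-stranded RNA, whose gene is induced by interferon. Its promoter is shown because it holds the letters of an interferon-stimulated response element at the start site. It is given in the direction of the gene from 250 bases before the start site (chr2:37156971-37157230, minus strand, GRCh38.p14, RefSeq), with capitals marking, from left to right, an E-box (CACGTG) and the element, searched as GAAA, any 2 bases and GAAA again.
EIF2AK2: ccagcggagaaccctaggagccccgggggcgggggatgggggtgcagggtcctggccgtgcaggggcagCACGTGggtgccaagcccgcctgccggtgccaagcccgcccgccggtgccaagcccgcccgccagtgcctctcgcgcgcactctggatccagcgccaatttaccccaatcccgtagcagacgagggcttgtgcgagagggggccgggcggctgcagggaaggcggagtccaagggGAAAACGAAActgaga
The element's match runs from base -6 to base 4 around the start site. Of 35116 promoters in the RefSeq table, 3.57% held the element on either strand and 7.26% held CACGTG, each in the 250 bases before to the 50 after the start. The table held a promoter for 6 of the 8 members, all but EIF2AK1 and PPP1CA. A match is a description of the letters and not of a bound site.

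EIF2AK2 was at log2 8.65 with DMSO, 8.78 with vemurafenib, 8.70 with AT9283 and 8.83 with both drugs at 6 h, and at 8.68 with DMSO and 8.69 with vemurafenib at 16 h. The 6 values lay close together, with the array of both drugs at the top. The difference of both drugs from DMSO was 0.18, and 0.40 on a second probe set above the floor. At 16 h vemurafenib differed by 0.00 for EIF2AK2. Of 8 interferon genes measured from a list of 10, in the same 16 h comparison 2 rose and 0 fell. The median difference was 0.53, against -0.0003 over all 9469 genes at the floor. This list was chosen with earlier results of these data known, so its counts only describe it. IRF9, a subunit of the interferon-activated transcription factor, rose by 1.90 and the antiviral gene IFIT1 by 1.76, each from a DMSO level below the floor (log2 5.56 and 5.77). IFI6 (0.91) and MX1 (0.59) also had positive differences, under the size rule, and 2 of the 8 had negative ones. The background share was 11%. After 6 h of vemurafenib 1 of the 8 rose and 0 fell (background 3.18%), with 5 positive differences, 3 negative ones and a median of 0.18. Under both drugs against DMSO these counts were the same (background 2.57%), with a median of 0.15. The gene that rose was IFIT1, by 1.31 and 1.27, from a DMSO level below the floor (log2 5.34). EIF2AK2 differed by 0.13 and 0.18 in these comparisons.

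EIF2AK3 encodes PERK, the kinase in the membrane of the endoplasmic reticulum that responds to unfolded protein. It was at log2 7.35 with DMSO, 7.23 with vemurafenib, 7.15 with AT9283 and 7.22 with both drugs at 6 h, and at 7.21 with DMSO and 6.98 with vemurafenib at 16 h. DMSO at 6 h was the highest and vemurafenib at 16 h the lowest. The difference of vemurafenib at 16 h was -0.23, no larger than the SD of the DMSO pair. AT9283 alone differed by -0.20, which was below all but 2.92% of 8938 genes at the floor, in a comparison where the size rule called 0.0224% of genes in either direction. The other probe set of EIF2AK3 lay below the floor on all 6 arrays.

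The list of other arms of the unfolded protein response, the pathway to which PERK belongs, held 6 measured genes. After 6 h of vemurafenib 1 rose and 0 fell, with a median of -0.01, and after 16 h 0 rose and 1 fell, with a median of -0.06. The background shares were 3.18% and 11%, and the medians over all genes at the floor were 0.02 and -0.0003. In each comparison 5 of the 6 reached the floor. XBP1, a transcription factor of this response, rose by 1.01 at 6 h and differed by 0.15 at 16 h. SDF2L1, which assists folding in the endoplasmic reticulum, differed by -0.47 at 6 h and fell by 1.28 at 16 h. The chaperone HSPA5, which holds PERK inactive, differed by 0.11 and -0.24 at these times.

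EIF2AK4 encodes GCN2, which binds uncharged tRNA and so senses amino acid shortage. It was at log2 8.56 with DMSO, 8.66 with vemurafenib, 8.63 with AT9283 and 8.67 with both drugs at 6 h, and at 8.78 with DMSO and 9.19 with vemurafenib at 16 h. The array of vemurafenib at 16 h stood above the other 5, which lay within about the SD of the DMSO pair of one another. The 16 h difference of 0.41 was above that of 80.0% of 9469 genes at the floor. The second probe set, below the floor on all 6 arrays, had -0.17 there.

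The 11 measured activators and inhibitors of the 4 kinases held 0 genes over the size rule in the vemurafenib comparisons at 6 h and 16 h. The background shares were 3.18% and 11%, and 10 of the 11 genes reached the floor in each comparison. The largest difference at 6 h was that of IMPACT, an inhibitor of GCN2 activation, which was at log2 7.65 with DMSO and 8.19 with vemurafenib, a difference of 0.54, and differed by 0.41 at 16 h. GCN1, the ribosome-bound activator of GCN2, differed by -0.00 and -0.33. OMA1 and DELE1, which relay mitochondrial stress to HRI, differed by 0.34 and 0.23 at 6 h and by -0.01 and 0.25 at 16 h. DNAJC3, an inhibitor of PKR and PERK, differed by -0.26 at 6 h and -0.21 at 16 h.

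EIF2S1 encodes eIF2α, the substrate of all 4 kinases. Its promoter is shown because EIF2S1 is the member that passed the size rule, at 16 h, as did 11% of all genes at the floor. Another reason is that the eIF2α promoter is a known target of nuclear respiratory factor 1 (NRF1, also called α-Pal). The sequence runs in the direction of the gene from 250 bases before the start site (chr14:67360078-67360337, plus strand, GRCh38.p14, RefSeq), with capitals marking both matches to GCATGCGC or its reverse complement GCGCATGC.
EIF2S1: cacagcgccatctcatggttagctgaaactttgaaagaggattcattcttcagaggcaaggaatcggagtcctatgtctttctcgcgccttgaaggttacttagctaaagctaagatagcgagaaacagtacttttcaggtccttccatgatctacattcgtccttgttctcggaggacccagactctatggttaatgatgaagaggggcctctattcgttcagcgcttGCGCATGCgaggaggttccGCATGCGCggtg
The matches run from base -21 to base -14 and from base -2 to base 6. Whether these letters bear on the level of EIF2S1 was not tested. Of the 35116 promoters 3.05% held these letters on either strand, and EIF2S1 was the only one of the 6 members with a promoter in the table to hold them.

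EIF2S1 was at log2 10.65 with DMSO, 10.44 with vemurafenib, 10.61 with AT9283 and 10.49 with both drugs at 6 h, and at 10.44 with DMSO and 9.42 with vemurafenib at 16 h. The 5 other arrays lay within 0.21 of one another, and the array of vemurafenib at 16 h lay far below them. EIF2S1 thus fell by 1.02 at 16 h, to 49.3% of its DMSO intensity. Of 9469 genes at the floor, 5.44% had a lower difference. At 6 h the difference was -0.21, the same as that between the DMSO arrays. The size rests on the probe set, since the other pair of EIF2S1 probe sets, both above the floor on all arrays, had -0.60 and -0.58 at 16 h, and the mean over the 3 had -0.73. On one of them the level was log2 9.17 with DMSO at 6 h, 8.79 with DMSO at 16 h and 8.19 with vemurafenib at 16 h, and on the other it was 9.01, 8.51 and 7.93. Vemurafenib at 16 h was thus the lowest array on all 3 probe sets, while the DMSO arrays differed by -0.38 and -0.50 on these and by -0.21 on the probe set used. With quantile normalization the difference was -0.93, under the rule. Epithelial markers moved on the same array, as KRT14 rose by 1.38 and KRT8 differed by 0.55, with EPCAM and CDH1 below the floor on all 6 arrays, and the summed log2 level of the 4 markers ranged from 20.88 to 24.31 over the arrays. The leukocyte marker LYZ differed by -0.92 in the same comparison (log2 6.50 with DMSO and 5.59 with vemurafenib), with PTPRC and CD3E below the floor on all arrays, and the summed level of these 3 ranged from 13.76 to 14.44. Their part in the result was not tested.

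The other subunits of eIF2, β (EIF2S2) and γ (EIF2S3), differed by -0.03 and 0.35 in the same 16 h comparison. The 5 subunits of eIF2B, the exchange factor blocked by phosphorylated eIF2, had differences of -0.38 for EIF2B1, -0.65 for EIF2B2, -0.67 for EIF2B3, -0.03 for EIF2B4 and -0.30 for EIF2B5. EIF5, which activates the GTPase of eIF2, had -0.43. None of these 8 genes passed the size rule, with a background of 11%. The differences of EIF2B2 and EIF2B3 were larger in size than those of EIF2S1 on its other probe sets (-0.60 and -0.58). Of the 8, 7 had a negative difference and the median was -0.34. Over all genes at the floor 4737 of 9469 had a negative difference and the median was -0.0003. With quantile normalization 5 of the 8 were negative, with a median of -0.27. At 6 h the same 8 genes had a median of -0.04, with 4 above 0 and 4 below.

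**Figure D2:**
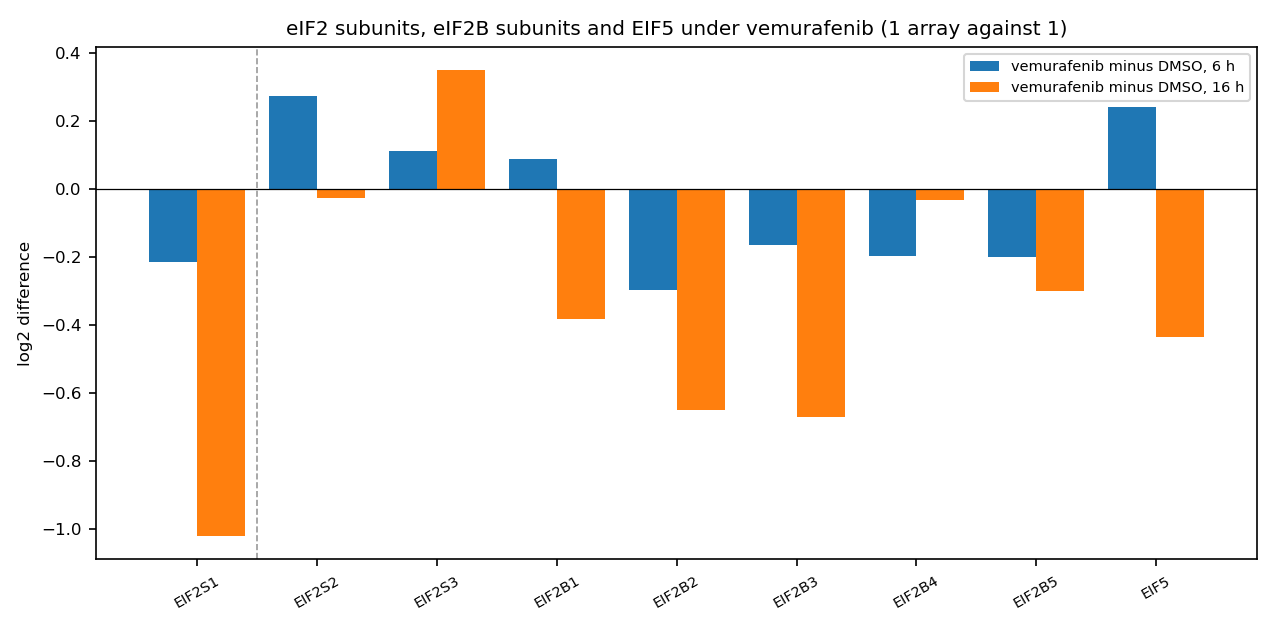
Log2 difference of vemurafenib from DMSO (vertical axis) at 6 h and 16 h for EIF2S1, left of the dashed line, and for the other eIF2 subunits, the eIF2B subunits and EIF5; each bar is 1 array against 1 array. EIF2S1 has the lowest bar on the probe set used, -1.02 at 16 h, and EIF2S3 is the only gene above 0 at 16 h, at 0.35. The other probe sets of EIF2S1, not drawn, had -0.60 and -0.58 at 16 h, beside -0.67 for EIF2B3 and -0.65 for EIF2B2.

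EIF2S1 had the widest range of the 8 genes, 1.23 on the log2 scale, and was the only one with a range of at least 1, with PPP1R15A next at 0.99. The search covered 1593 genes whose mean reached log2 6 and whose range reached 1, and the 5 whose log2 values followed EIF2S1 most closely on the 6 arrays were MRPL17 (Pearson r 0.9996, Spearman rho 0.943), SERPINB7 (0.9992, 0.943), SRM (0.9990, 0.943), DHODH (0.9989, 1.0) and TRIP13 (0.9986, 1.0). They encode a mitochondrial ribosomal protein, a serine protease inhibitor, spermidine synthase, an enzyme of pyrimidine synthesis and an ATPase of the mitotic checkpoint. Each shared with EIF2S1 the drop on the array of vemurafenib at 16 h, where their differences ranged from -1.34 to -0.96. Without that array and DMSO at 6 h, r over the remaining 4 arrays was 0.952 to 0.994. Those 4 arrays were among the 6 used to pick the genes, so this r is no independent check. EIF2S1 lay between log2 10.44 and 10.61 on them. Likeness to the other probe sets of EIF2S1 was not computed. These genes were picked as the highest of 1593, and the 6 arrays share a cell line and a normalization.

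PPP1R15A and PPP1R15B encode the regulatory subunits that bring protein phosphatase 1 to eIF2α. GADD34, from PPP1R15A, is the stress-inducible form, and CReP, from PPP1R15B, is made at all times. Their promoters are shown side by side because the array values of these genes went opposite ways under both drugs. Each runs in the direction of its gene from 250 bases before the start site (chr19:48872171-48872430, plus strand, and chr1:204411808-204412067, minus strand, GRCh38.p14, RefSeq). Capitals mark a cyclic AMP response element (TGACGTCA), a site class of ATF and CREB factors, in PPP1R15A, and the core of a C/EBP-ATF response element (TGATGNAA), the site class of ATF4 with C/EBP partners, in PPP1R15B.
PPP1R15A: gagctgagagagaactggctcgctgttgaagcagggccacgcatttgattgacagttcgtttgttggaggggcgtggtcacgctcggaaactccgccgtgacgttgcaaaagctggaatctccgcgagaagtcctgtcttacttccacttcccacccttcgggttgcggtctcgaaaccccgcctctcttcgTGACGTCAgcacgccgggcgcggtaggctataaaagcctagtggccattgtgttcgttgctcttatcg
PPP1R15B: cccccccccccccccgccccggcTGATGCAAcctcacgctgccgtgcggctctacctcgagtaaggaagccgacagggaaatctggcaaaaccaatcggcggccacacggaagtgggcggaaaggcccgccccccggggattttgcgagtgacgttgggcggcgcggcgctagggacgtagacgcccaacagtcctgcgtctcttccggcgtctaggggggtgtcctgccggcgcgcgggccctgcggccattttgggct
The match in PPP1R15A runs from base -58 to base -51 and that in PPP1R15B from base -227 to base -220. Whether these letters bear on the level of either gene was not tested. Of the 35116 promoters 1.85% held TGACGTCA and 3.62% held TGATGNAA, both strands searched. The searches also covered the ETS core CCGGAAGT, which 4.14% of promoters and none of the 6 members' held; EIF2AK3 and EIF2AK4 matched none of the 6 motifs.

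PPP1R15A was at log2 7.38 with DMSO, 6.92 with vemurafenib, 7.26 with AT9283 and 6.39 with both drugs at 6 h, and at 7.15 with DMSO and 6.73 with vemurafenib at 16 h. All 3 arrays with vemurafenib were below all 3 arrays without it. The combination was the lowest of the 6, with 50.4% of the DMSO intensity at 6 h, against 72.7% for vemurafenib alone and 92.5% for AT9283 alone. On the log2 scale these differences were -0.99, -0.46 and -0.11. The first was just under the limit of the size rule, and 1.95% of 9076 genes at the floor had a lower difference.

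The second probe set of PPP1R15A had the same order of the 4 arrays at 6 h, with log2 6.96 for DMSO, 6.75 for AT9283, 6.11 for vemurafenib and 5.66 for both drugs. On it the combination passed the size rule against DMSO, at -1.29, and against AT9283, at -1.09, and vemurafenib alone differed by -0.84. At 16 h it was at 6.51 with DMSO and 5.92 with vemurafenib, a difference of -0.59 against -0.42 on the probe set used. The combination array and the array of vemurafenib at 16 h lay below the floor on this second probe set.

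The combination differed from vemurafenib alone by -0.53 on the probe set used and by -0.45 on the other. Of 8999 genes at the floor, 1.25% had a lower difference. The vemurafenib difference was -0.46 without AT9283 and -0.88 with it, a difference of differences of -0.42. There is no replicate error to set this against. The residual of the fit given next holds only the change of the vemurafenib effect between 6 h and 16 h. In a limma fit of all 6 arrays with an interaction of the drugs, where the vemurafenib effect without AT9283 is averaged over both times, the interaction of PPP1R15A was -0.43 (SE 0.22, adjusted p 0.999 by limma). That fit, chosen after seeing the data, has 1 residual degree of freedom and called 0 of 9707 genes (0%, with 39 at an unadjusted p under 0.05) and 0 of 8 members.

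PPP1R15B was at log2 9.14 with DMSO, 9.25 with vemurafenib, 9.34 with AT9283 and 9.51 with both drugs at 6 h, and at 9.22 with DMSO and 9.29 with vemurafenib at 16 h. The order of the 6 h arrays put both drugs at the top and DMSO at the bottom. The differences from DMSO were 0.11 for vemurafenib, 0.20 for AT9283 and 0.37 for both drugs, and 91.9% of genes had a lower difference than the last. PPP1R15B had 1 probe set, so no second one could be set beside it. PPP1R15A and PPP1R15B were thus at opposite ends of their own ranges on the combination array, and these comparisons share the DMSO array.

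PPP1CA, the catalytic subunit α of protein phosphatase 1, was the steadiest of the 8 genes. It was at log2 10.33 with DMSO, 10.30 with vemurafenib, 10.21 with AT9283 and 10.26 with both drugs at 6 h, and at 10.22 with DMSO and 10.27 with vemurafenib at 16 h. Its 6 values spanned 0.12. The other catalytic subunits were PPP1CB, with vemurafenib differences of 0.20 at 6 h and 0.62 at 16 h, and PPP1CC, with -0.01 and -0.05, none over the size rule.

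**Figure D3:**
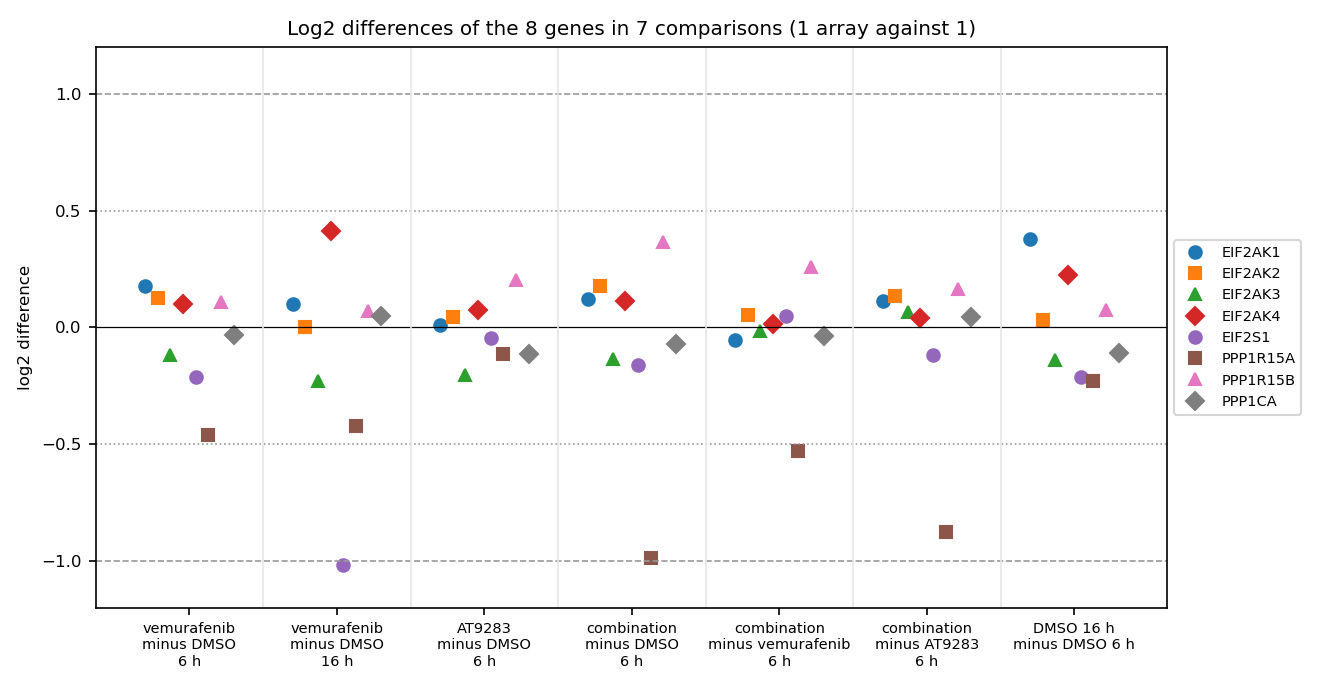
Log2 difference (vertical axis) of each of the 8 genes in each of the 7 comparisons (horizontal axis), with dashed lines at 1 and -1 and dotted lines at 0.5 and -0.5; each point is 1 array against 1 array. EIF2S1 lies past -1 in vemurafenib minus DMSO at 16 h (-1.02), and PPP1R15A has the lowest point in all 4 comparisons of 6 h that involve vemurafenib.

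PPP1R15A is itself a gene of the integrated stress response, so its values were set beside the factors that act below eIF2α. The list of these factors was chosen with earlier results of these data known, so its counts only describe it. Of its 8 genes, 4 rose and 0 fell after 6 h of vemurafenib, with a background of 3.18%. Of all 9095 genes at the floor, 94 rose and 195 fell. The median of the 8 listed genes was 1.15, against 0.02 over all genes at the floor. The factors ATF3, DDIT3 and CEBPG rose by 2.13, 2.08 and 1.31, and SESN2, which restrains mTORC1, rose by 2.08. ATF4 had 0.99, just under the rule. At 16 h 2 of the 8 rose and 0 fell (background 11%, with 491 of 9469 genes higher), and the median was 0.57. PPP1R15A had -0.46 and -0.42 in these comparisons, while all 8 listed genes had positive differences in both. Of all genes at the floor, 4897 of 9095 had positive differences at 6 h and 4631 of 9469 at 16 h.

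Under both drugs 1 of the 8 listed genes rose relative to DMSO, SESN2 by 1.27, and 0 fell. The background was 2.57%, with 58 of 9076 genes higher, and the median of the 8 was 0.56. Set against vemurafenib alone, the combination was lower for 7 of the 8, with a median of -0.81. Of all 8999 genes at the floor 3778 were lower, with a median of 0.03. ATF3 (-1.35) and DDIT3 (-1.12) fell, with a background of 0.322%. TRIB3, a pseudokinase induced by ATF4, had -0.92 and SESN2 had -0.81. PPP1R15A, at -0.53, was lower in this comparison too, but from a level that was already below DMSO. On the combination array the 7 listed genes other than TRIB3 (-0.00, and above 0 with quantile normalization) were above DMSO, whereas PPP1R15A was at -0.99.

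**Figure D4:**
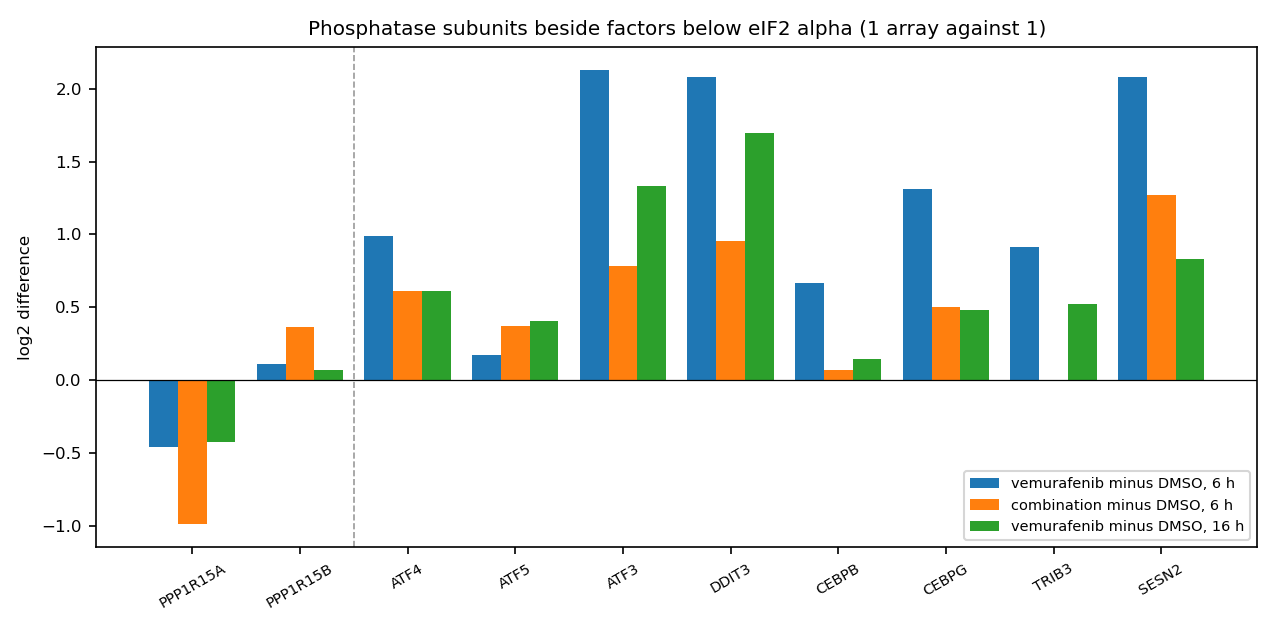
Log2 difference from the DMSO array of the same time (vertical axis) for PPP1R15A and PPP1R15B, left of the dashed line, and for 8 stress-response genes below eIF2α; each bar is 1 array against 1 array, and both 6 h comparisons share the DMSO array. PPP1R15A has negative bars in all 3 comparisons (-0.46, -0.99 and -0.42), and DDIT3 has positive ones (2.08, 0.96 and 1.70).

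Some effects have more than 1 array per arm. For vemurafenib over both times, a limma fit of the 4 arrays without AT9283, with the time point as a block, called 113 of 9651 genes at an adjusted p under 0.05, or 1.17%, and 0 of the 8 members (2 had an unadjusted p under 0.05 in this fit). PPP1R15A was lower by a log2 difference of -0.44 (SE 0.13, adjusted p 0.176 by limma), lower with vemurafenib at both times. EIF2S1 had -0.62 (SE 0.23, adjusted p 0.225 by limma), also lower at both times, though mostly at 16 h. The other 6 members had between -0.18 (EIF2AK3) and 0.26 (EIF2AK4), with adjusted p from 0.391 to 0.98 by limma. The fit has 1 residual degree of freedom, which measures how far the effect at 16 h departs from that at 6 h, and no replicate error. For AT9283, with and without vemurafenib, a limma fit of all 6 arrays with main effects called 0 of 9707 genes (0%, with 225 at an unadjusted p under 0.05) and 0 of 8 members. PPP1R15A had -0.32 (SE 0.15, adjusted p 0.999 by limma) and PPP1R15B had 0.23 (SE 0.09, adjusted p 0.999 by limma), each with the same sign with and without vemurafenib. This AT9283 fit was also chosen after seeing the data. Its 2 residual degrees of freedom hold changes of the vemurafenib effect with time and with AT9283, and no replicate error. The labels do not say whether the arrays came from separate cultures.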

How the data were processed

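The authors deposited 1 table of intensity, linear and per probe set, for 6 Affymetrix arrays, made from biotin-labelled cRNA per the labels' protocols. Of tools, the submitters' processing notes name RMA alone; its version was not given in the sources used here, nor whether the arrays were normalized jointly. Of 54675 probe sets, 41097 had 1 gene symbol in the platform annotation, 1801 had several and 11777 were not listed. In 1118 probe sets the 6 h values sat on other rows than the 16 h values (r between the DMSO arrays 0.455, against 0.992 elsewhere), so these and 62 control probe sets were left out. None of the members' 16 probe sets was among them. Values were converted to log2, and each of 19676 genes was read from its probe set of highest mean. Genes near the members' pathway came from lists, and the members and lists were chosen with earlier results of these data known. Named genes were the 8 members, up to 4 genes per list with the largest differences in a comparison, and the 5 genes most like the member of widest range. ATF4, EIF2S2, EIF2S3, EIF2B4 and EIF2B5 were named beyond this rule, chosen after their values were seen. limma 3.58.1 (R 4.3.3, trended eBayes, Benjamini-Hochberg) was fitted to genes with at least 1 array at log2 6, and the steps were tested on simulated data. Alternatives covered probe set choice, scaling, pseudocount, floor, size and control. The number of arrays limits the precision.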

Additional observations from a re-analysis of the deposited data

Results flagged for a closer look

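Effects of opposite sign under the same treatment occurred for 4 of the 8 genes, all of them small, and 0 of 8 members were called for the interaction of the drugs by limma (0 of 8 at an unadjusted p under 0.05), while the change between times was not tested. PPP1CA differed by -0.03 with vemurafenib at 6 h and by 0.05 at 16 h, which is 0.079 apart. It also changed sign with AT9283 present, from -0.03 to 0.04, or 0.0765 apart. EIF2AK3 had a vemurafenib difference of -0.12 without AT9283 and 0.07 with it, 0.19 apart. The other probe set of EIF2AK3, below the floor, had 0.06 and 0.20, with no change of sign. For AT9283, EIF2AK1 had 0.01 without vemurafenib and -0.06 with it, a change of -0.0646. The other probe set of EIF2AK1, below the floor, changed sign the other way, from -0.04 to 0.11. For AT9283, EIF2S1 had -0.05 and 0.05, 0.10 apart, a sign change seen on the probe set used and on neither other one. Those had 0.23 and 0.13 without vemurafenib and 0.25 and 0.27 with it. All these changes are below 0.24, the SD of the DMSO pair. That yardstick is loose here, as it also holds time and is a spread of single differences. The fit of the interaction holds no replicate error either.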

How the results depend on the processing

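The count of members over the size rule was the same under all alternatives run, except in these cases. For vemurafenib at 16 h it went from 1 to 0 with the mean over all probe sets (EIF2S1 at -0.73), without probe sets with an _s, _x or _a suffix (-0.60) and with quantile normalization (-0.93). For the combination against DMSO it went from 0 to 1 with the mean over all probe sets (PPP1R15A at -1.14) and with a size of at least 0.5, which also gave 1 against vemurafenib and 1 against AT9283, PPP1R15A each time. PPP1R15A stayed negative in these 3 comparisons and in both vemurafenib comparisons under each alternative. EIF2AK4 at 16 h differed by -0.17 without suffixed probe sets, on a probe set below the floor. EIF2AK1 and PPP1CA have suffixed probe sets alone, so that alternative left them out. In limma 463 genes were called with all 6 arrays and main effects, and 32 with the mean over all probe sets, against 113. The first called 0 of 8 members and the second 0 of 7, as EIF2AK3 was not tested there. PPP1R15A then had an adjusted p of 0.07 and 0.145 by limma. Over all 5 alternatives its adjusted p ranged from 0.07 to 0.28. No paired analysis of replicates was possible because each condition has 1 array. The block in limma is the time point. Leaving out 1 array was not run for the differences, which each rest on a pair of arrays, or for the 4-array fit, which would keep no residual degree of freedom. With quantile normalization the added fits for AT9283 and for the interaction of the drugs also called 0 genes by limma (164 and 37 at an unadjusted p under 0.05).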
